A study of Mus musculus with 20 samples.

Results

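The genes of the microtubule motors were described in subcerebral projection neurons of the mouse: the kinesins, the kinesin light chains, cytoplasmic dynein and dynactin. Within this family, membership was by symbol alone. It took every Kif, Kifc, Klc, Dync, Dynll, Dynlrb or Dctn gene of the count table that fits a fixed name pattern. Measured values were not used for membership, but the family itself was chosen with earlier results of these data known. The pattern matched 62 of 55487 genes: 41 kinesin (Kif and Kifc) genes, 4 kinesin light chain genes, 11 dynein genes and 6 dynactin genes. RNA was sequenced in 20 libraries at postnatal day 1, prepared either from cell bodies (somata) of the cortex or from growth cones, which are the motile ends of axons, of the brainstem and spinal cord. Subcerebral projection neurons are the cortical neurons that send axons to those regions. Each compartment had 5 WT libraries and 5 labelled KO, the KO being of Bcl11b, which encodes a transcription factor. The growth cone libraries of both genotypes carry experiment numbers 7, 8, 9, 10 and 11. WT somata carry 12, 14, 22, 25 and 26, and somata labelled KO carry 14, 15, 22, 25 and 26, and values below follow this order. The nature of the null allele, the way the neurons and growth cones were isolated, and the number of animals behind a library are not given in the sources used here, so p-values measure the spread between these libraries only.

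Kinesins are motors that mostly walk towards the plus ends of microtubules, which in an axon point to its tip, while cytoplasmic dynein walks towards the minus ends and carries cargo back to the soma. A dynein motor is built on a pair of heavy chains with intermediate, light intermediate and light chains, and it needs dynactin, a second large complex, to move far. Many axonal mRNAs are themselves carried by these motors, and an mRNA present at the tip can be translated there.

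Total counts per library ran from 18962308 to 51205154 over the 20 libraries. The motor genes took 0.696% ± 0.066 (SD, n = 5) of all counts in WT growth cones, 0.669% ± 0.082 in growth cones labelled KO, and 0.758% ± 0.025 (WT) and 0.755% ± 0.036 (labelled KO) in somata. Bcl11b did not follow the soma labels: it stood at 1082 ± 53.6 CPM (counts scaled to the same total in every library) in somata labelled KO and 655 ± 122 CPM in WT somata, a log2 difference of 0.74 (two-sided exact permutation p = 0.00794, the lowest possible for 5 against 5 libraries). In growth cones it stood at 108 ± 35.3 CPM in the labelled KO and 108 ± 20.1 CPM in WT (exact permutation test, two-sided, p = 0.905). Reads outside a deleted part cannot check such a label, and the deleted part is not given, so each KO group is named by its label here.

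Growth cone libraries also held higher levels of marker genes of several other cell types. Summed over fixed marker lists and scaled between all libraries, astrocyte genes ran from 1812 to 2412 CPM in WT growth cones and 384 to 850 CPM in WT somata, with 5 of 6 genes higher and 1 lower. Oligodendrocyte lineage genes ran from 457 to 2077 CPM against 59.5 to 109 CPM, with 5 of 6 higher. Hindbrain and spinal cord genes (mostly Hox) ran from 67.9 to 136 CPM against 0.0297 to 0.209 CPM, choroid plexus genes from 239 to 416 CPM against 0.115 to 1.34 CPM, and vessel and blood genes from 243 to 482 CPM against 3.01 to 18.9 CPM. Of the genes tested in these lists, 6 of 6, 1 of 1 and 2 of 4 were higher, so a sum can rest on few genes. Cycling cell genes ran from 55.6 to 110 CPM against 13.3 to 23.7 CPM, with 2 of 7 higher. The labelled KO showed the same order, with astrocyte genes at 1654 to 2293 CPM (growth cones) against 326 to 630 CPM (somata) and oligodendrocyte genes at 502 to 1495 CPM and 67.0 to 97.6 CPM. There 4 of 6 astrocyte genes and 5 of 6 oligodendrocyte genes were higher. Microglia genes did not follow: 0 of 5 were called in either genotype, at 23.8 to 63.9 CPM in WT growth cones and 2.95 to 90.2 CPM in WT somata. Of the motile cilia genes tested, 2 of 7 were higher and 1 lower in WT, and 1 of 6 was higher in the labelled KO. The markers of the labelled neurons themselves ran from 631 to 924 CPM in WT growth cones and from 2249 to 2503 CPM in WT somata, and none of the 8 was at 0. Source tissue, the amount of RNA used (0.19 to 3.1 ng for growth cones and 1.8 to 3.1 ng for somata) and the experiment numbers all go with the compartment and cannot be told apart from it. In bulk RNA, fewer cells of a type and less RNA per cell cannot be told apart either, and the part of other cell types in the differences below was not tested.

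Of the light chains, Dynll1 and Dynll2 encode the LC8 chains, small hubs that bind dynein and many other proteins. Because both are prominent below and their products are close to identical, their coding sequences are shown to make plain how far reads from them can be told apart. Dynll1 lies on chromosome 5 (chr5:115297110-115300999, minus strand) and Dynll2 on chromosome 11 (chr11:87979525-87987533, minus strand), in GRCm38 as the deposited table gives them. Both sequences come from the coding exons of GENCODE release M21 without the stop codon, and capitals mark the bases that differ.
Dynll1: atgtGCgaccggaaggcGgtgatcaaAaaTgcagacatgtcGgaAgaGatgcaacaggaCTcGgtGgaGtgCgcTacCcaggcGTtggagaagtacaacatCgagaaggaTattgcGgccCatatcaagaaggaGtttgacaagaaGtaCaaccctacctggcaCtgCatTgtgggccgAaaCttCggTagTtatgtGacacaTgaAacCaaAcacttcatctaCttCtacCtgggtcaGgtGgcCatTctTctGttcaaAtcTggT
Dynll2: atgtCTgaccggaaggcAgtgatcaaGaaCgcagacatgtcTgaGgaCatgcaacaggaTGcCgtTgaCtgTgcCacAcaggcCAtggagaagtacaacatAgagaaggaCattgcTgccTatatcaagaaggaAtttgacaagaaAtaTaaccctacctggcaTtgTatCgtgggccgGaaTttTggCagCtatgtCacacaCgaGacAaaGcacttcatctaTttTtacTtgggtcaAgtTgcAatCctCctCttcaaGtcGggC
The 2 coding sequences are 267 bases long, encode 89 residues and differ at 50 bases, so they are 81.3% alike. Of these differences, 45 fall on the third base of a codon. The longest stretch without a difference is 16 bases. Over the whole transcripts of the 62 genes, the share of 50-base stretches also found in another motor gene was at most 2.0% (Dynll1), and it was 0 for all but 5 genes. For Dynll2 it was 0, and the genes sharing most with Dynll1 were Ybey, Git2, Map3k12, Sympk and Ube2e1, which are not motor genes. Counting every other gene of the annotation, the share was at least 10% for 9 motor genes, the opposite-strand overlaps named below among them, and reached 47.6% for Kifc1, which shares sequence with Kifc5b and other copies.

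**Figure D1:**
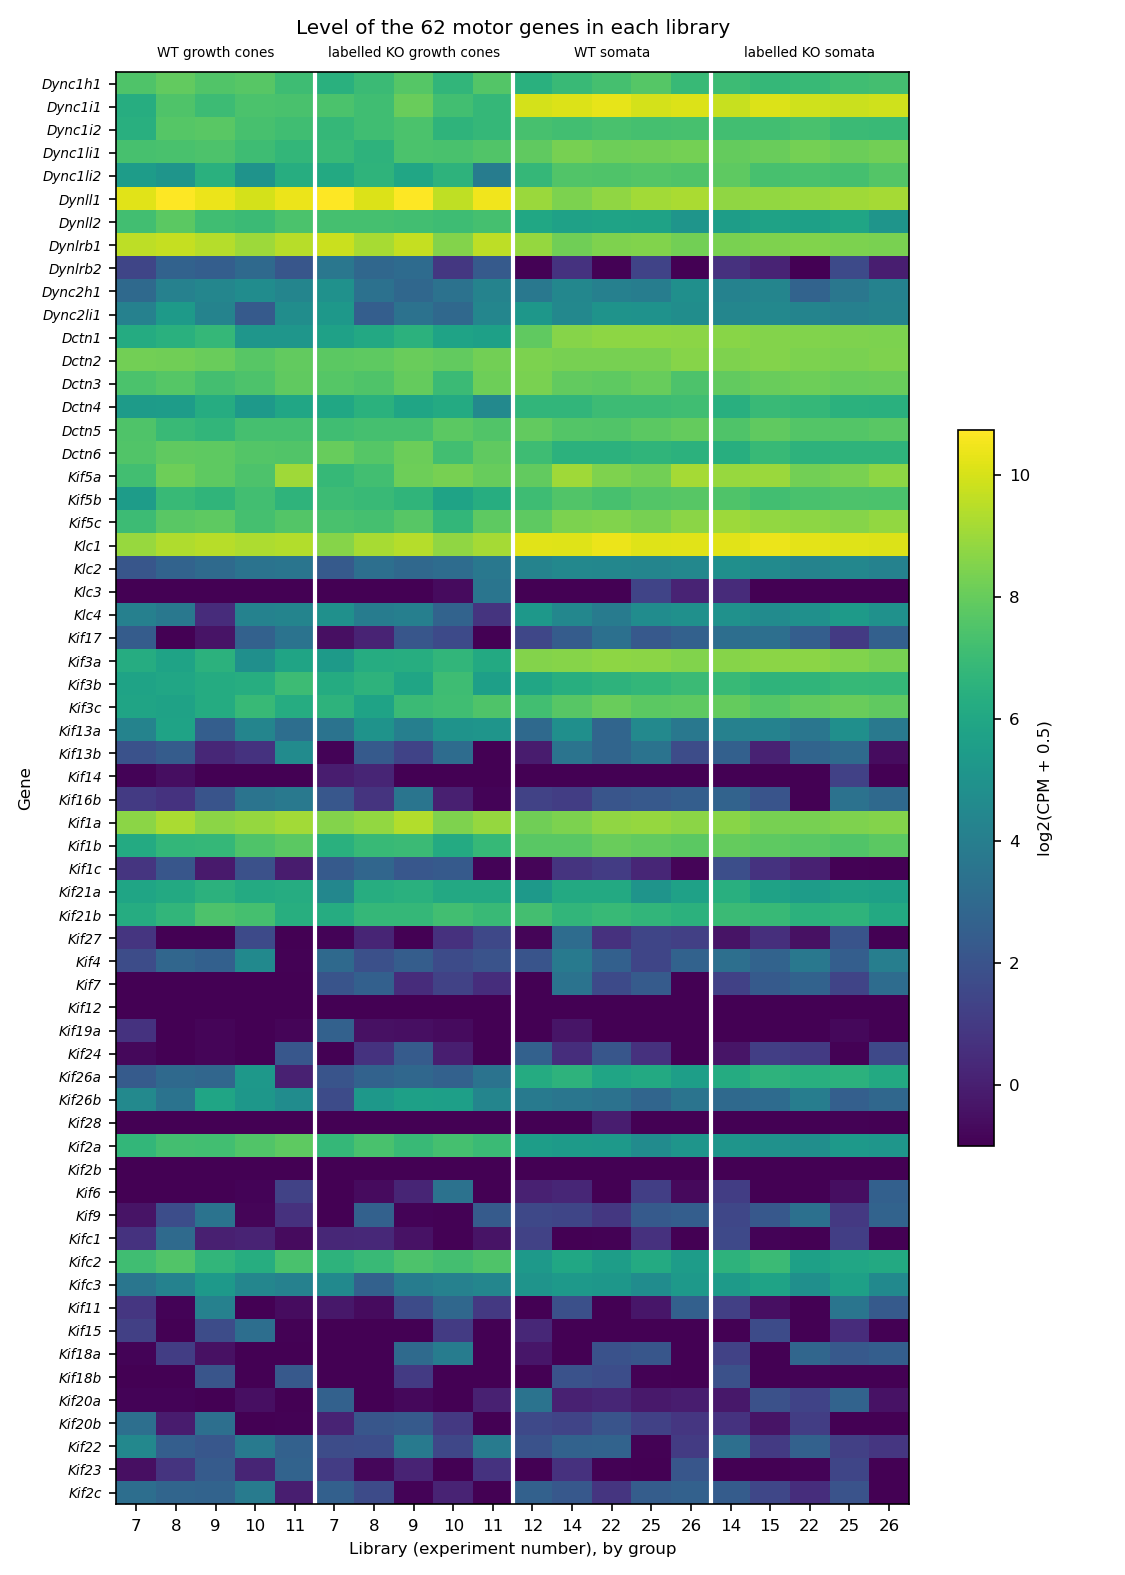
Level of each of the 62 motor genes (rows) in each of the 20 libraries (columns, by experiment number within group), as log2 of the scaled CPM plus 0.5. Dynll1, Klc1, Dync1i1, Dynlrb1 and Kif1a have the highest mean levels over the 20 libraries, and Dync1i1, Kif3a and Dctn1 are visibly dimmer in the 10 growth cone libraries.

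Per base of annotated exon length, dynein light chains led the motor genes. This length joins all annotated exons of a gene, so it can exceed that of any 1 transcript. For Dynll1 it was 3890 bases in 1 block spanning the whole gene, and for Dynlrb1 it was 1009 bases. By CPM, Dynll1 stood above Dynlrb1 in every library, so their order depends on this length. Dynlrb1, a roadblock light chain of dynein, made up 34.7% of the summed TPM (counts divided by gene length and scaled to the same total in every library) of the 62 genes in WT growth cones, at a mean of 1861 TPM, and 17.1% in WT somata, at 1134 TPM. Dynll1 followed with 16.9% in WT growth cones and was the fifth with 6.13% in WT somata. In somata the second place went to Dync1i1, a dynein intermediate chain, with 14.99% in WT and 13.1% in the labelled KO, against 2.05% and 2.37% in the growth cones. Dctn3, a small dynactin subunit, was the third and Klc1, the most abundant kinesin light chain, the fourth in every group. The most abundant kinesin heavy chain per length was Kif1a in WT growth cones (141 TPM) and Kif3a in WT somata (353 TPM). Summed over the 62 genes, levels were 5357 ± 366 TPM in WT growth cones and 6630 ± 112 TPM in WT somata, and 5280 ± 587 and 6575 ± 278 TPM in the labelled KO. This log2 difference of -0.31 in WT and -0.32 in the labelled KO shrank to -0.05 in both when levels were taken as scaled CPM per kilobase, so the summed level depends on the scale used.

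Between WT growth cones and WT somata, 49 motor genes had enough counts to be tested and 20 changed, at a false discovery rate of 0.05 in edgeR's quasi-likelihood test over all genes. Of these, 7 were higher in growth cones and 13 lower. Among all 15128 genes tested, 42.8% were called (23.1% higher and 19.7% lower), so the motor genes' 40.8% lies near that background. For 19 motor genes (7 higher, 12 lower) the 5 growth cone libraries did not overlap the 5 soma libraries, against 37.9% of all genes. The median log2 fold change of the 49 was -0.01, beside 0.07 over all genes. Other scalings moved the split: upper quartile scaling and library totals each gave 10 higher and 11 lower, with the median of all genes at 0.28 and 0.22, adding Dync1h1, Kif1a and Kif21a as higher.

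In the labelled KO, 51 motor genes were tested and 23 changed, 8 higher and 15 lower in growth cones. All genes gave 38.6% called (21.6% higher and 17.0% lower) out of 15410, beside 45.1% of the motor genes. No overlap between libraries was seen for 18 motor genes (5 higher, 13 lower), against 36.9% of all genes. Their median log2 fold change was -0.32, beside 0.11 over all genes. Called in both genotypes were 18 genes, 7 higher and 11 lower, and none was called in opposite directions. The matching share over all genes is not given here, so this count cannot be read as particular to the motor genes. In the main setting Dctn4 and Dctn5 passed in WT alone and Dctn2, Kif1a, Kif1b, Kif5a and Kifc3 in the labelled KO alone. All of these but Dctn5 were also called in the other genotype, in the same direction, in at least 1 other setting or with 1 library left out. No motor gene passed the test of the difference between genotypes described below.

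**Figure D2:**
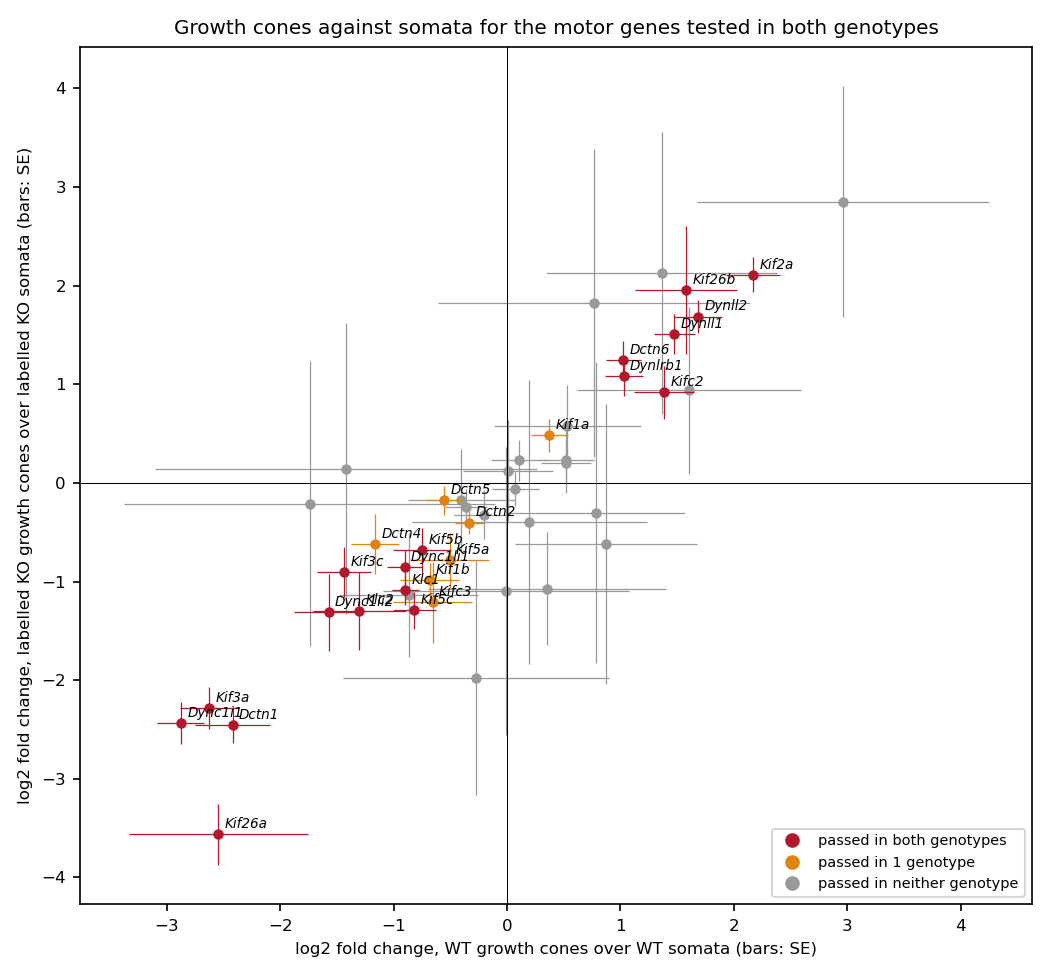
Log2 fold change of growth cones over somata in WT (x axis) and in the labelled KO (y axis) for the 47 motor genes tested in both, with standard errors as bars and colours for the number of genotypes in which the gene passed the test. Among the genes that passed in both genotypes, Kif2a, Dynll2, Dynll1 and Kif26b lie at the upper right, and Kif26a, Dync1i1, Dctn1 and Kif3a at the lower left.

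The dynein-1 subunits moved in both directions. Of 9 genes tested, the light chains Dynll1, Dynll2 and Dynlrb1 were higher in growth cones of both genotypes. The intermediate chain Dync1i1 and both light intermediate chains Dync1li1 and Dync1li2 were lower in both. The heavy chain Dync1h1, the intermediate chain Dync1i2 and Dynlrb2 did not pass, though some alternatives called Dync1h1 (in WT) and Dynlrb2 (in both genotypes) higher. Over all genes tested, 23.1% were higher and 19.7% lower in WT, and 21.6% and 17.0% in the labelled KO.

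Dync1i1 showed the lowest p of all motor genes in WT. It stood at 78.9, 182, 131, 168 and 164 CPM in WT growth cones and at 997, 1113, 1246, 1013 and 1109 CPM in WT somata. Libraries of the labelled KO gave 170, 138, 263, 146 and 113 CPM in growth cones and 858, 1101, 956, 899 and 932 CPM in somata. Every growth cone library lay far below every soma library. Its log2 fold change was -2.88 ± 0.21 (SE, edgeR adjusted p = 1.11e-06) in WT and -2.43 ± 0.21 (adjusted p = 6.93e-06) in the labelled KO. Dync1i2, its broadly expressed paralog, stood at 85.1, 201, 210, 159 and 139 CPM in WT growth cones and 157, 145, 164, 152 and 160 CPM in WT somata. Its libraries overlapped throughout, with a log2 fold change of 0.07 ± 0.21 (edgeR adjusted p = 0.808).

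The share of Dync1i1 in the pair, taken per length within each library and so free of scaling between libraries, was 68.2, 67.8, 59.0, 71.0 and 73.3% in WT growth cones and 93.7, 94.7, 94.6, 93.9 and 94.2% in WT somata. Labelled KO shares were 78.0, 69.5, 78.2, 77.5 and 70.0% in growth cones and 93.2, 94.7, 93.1, 94.3 and 94.6% in somata. The growth cone libraries were all lower, by 26.3 percentage points in WT and 19.4 in the labelled KO. Each difference gave the smallest p that the exact permutation test allows (two-sided p = 0.00794), which over the 48 share tests became an adjusted p of 0.0635. From counts not divided by length, the shares differed by 39.6 and 31.0 points.

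Dynll1 ran the other way. It stood at 1190, 1699, 1351, 1015 and 1346 CPM in WT growth cones and 498, 339, 447, 555 and 612 CPM in WT somata. Labelled KO values were 1683, 1097, 1685, 783 and 1412 CPM in growth cones and 437, 456, 488, 530 and 564 CPM in somata. Groups of different compartments did not overlap, and the lowest growth cone value was library 10 in either genotype. The log2 fold change was 1.48 ± 0.18 (edgeR adjusted p = 4.87e-05) in WT and 1.51 ± 0.20 (adjusted p = 0.000143) in the labelled KO.

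Dynll2, the closely related LC8 chain shown above, rose beside it. Its levels were 146, 222, 138, 127 and 172 CPM in WT growth cones against 64.0, 51.6, 54.8, 53.3 and 34.4 CPM in WT somata. Growth cones labelled KO held 152, 154, 144, 135 and 154 CPM against 46.0, 53.2, 50.5, 59.4 and 33.99 CPM in the somata. The compartments were again apart, and the growth cones labelled KO were the most even group, with a coefficient of variation of 5.68%. The log2 fold changes were 1.69 ± 0.21 (edgeR adjusted p = 6.42e-05) and 1.69 ± 0.17 (adjusted p = 1.69e-05). The share of Dynll1 in the pair, per length, lay between 80.3 and 92.6% in all 20 libraries and overlapped between compartments.

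Dynlrb1 stood at 761, 843, 690, 508 and 715 CPM in WT growth cones and 463, 295, 357, 359 and 305 CPM in WT somata, a log2 fold change of 1.03 ± 0.17 (edgeR adjusted p = 0.000418). The labelled KO gave 880, 588, 837, 373 and 753 CPM in its growth cones, 327, 348, 367, 340 and 335 CPM in its somata, and a log2 fold change of 1.08 ± 0.21 (edgeR adjusted p = 0.00148). No growth cone library was as low as a soma library of its genotype, though library 10 of the labelled KO came close at 373 against 367 CPM. Its paralog Dynlrb2 was scarce, at 4.97 ± 2.03 CPM in WT growth cones and 0.652 ± 0.925 CPM in WT somata (edgeR adjusted p = 0.0831). In other tests Dynlrb2 was called higher in WT and in the labelled KO, by DESeq2's Wald test (adjusted p = 0.028 and 0.016) and by limma-voom (adjusted p = 0.00523 and 0.0282).

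The light intermediate chains, which link dynein to its cargo adaptors, were lower in growth cones. Dync1li1 stood at 161, 164, 173, 134 and 109 CPM in WT growth cones and 230, 319, 284, 289 and 312 CPM in WT somata, with log2 fold changes of -0.90 ± 0.15 (edgeR adjusted p = 0.00055) in WT and -0.86 ± 0.18 (adjusted p = 0.00251) in the labelled KO. Dync1li2 stood at 43.9, 34.3, 86.5, 32.0 and 80.0 CPM in WT growth cones and 110, 188, 179, 195 and 179 CPM in WT somata, with log2 fold changes of -1.57 ± 0.30 (edgeR adjusted p = 0.00132) and -1.31 ± 0.39 (adjusted p = 0.0192). For both genes the compartments did not overlap in either genotype, with soma 12 the lowest WT soma library. The heavy chain Dync1h1, the motor itself, stood at 178, 244, 186, 205 and 134 CPM in WT growth cones and 88.1, 125, 152, 197 and 118 CPM in WT somata. These ranges overlapped, at a log2 fold change of 0.52 ± 0.22 (edgeR adjusted p = 0.0741), and in the labelled KO the value was 0.21 ± 0.23 (adjusted p = 0.518). The dynein-2 genes Dync2h1 and Dync2li1, which serve transport inside cilia, did not pass in either genotype.

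**Figure D3:**
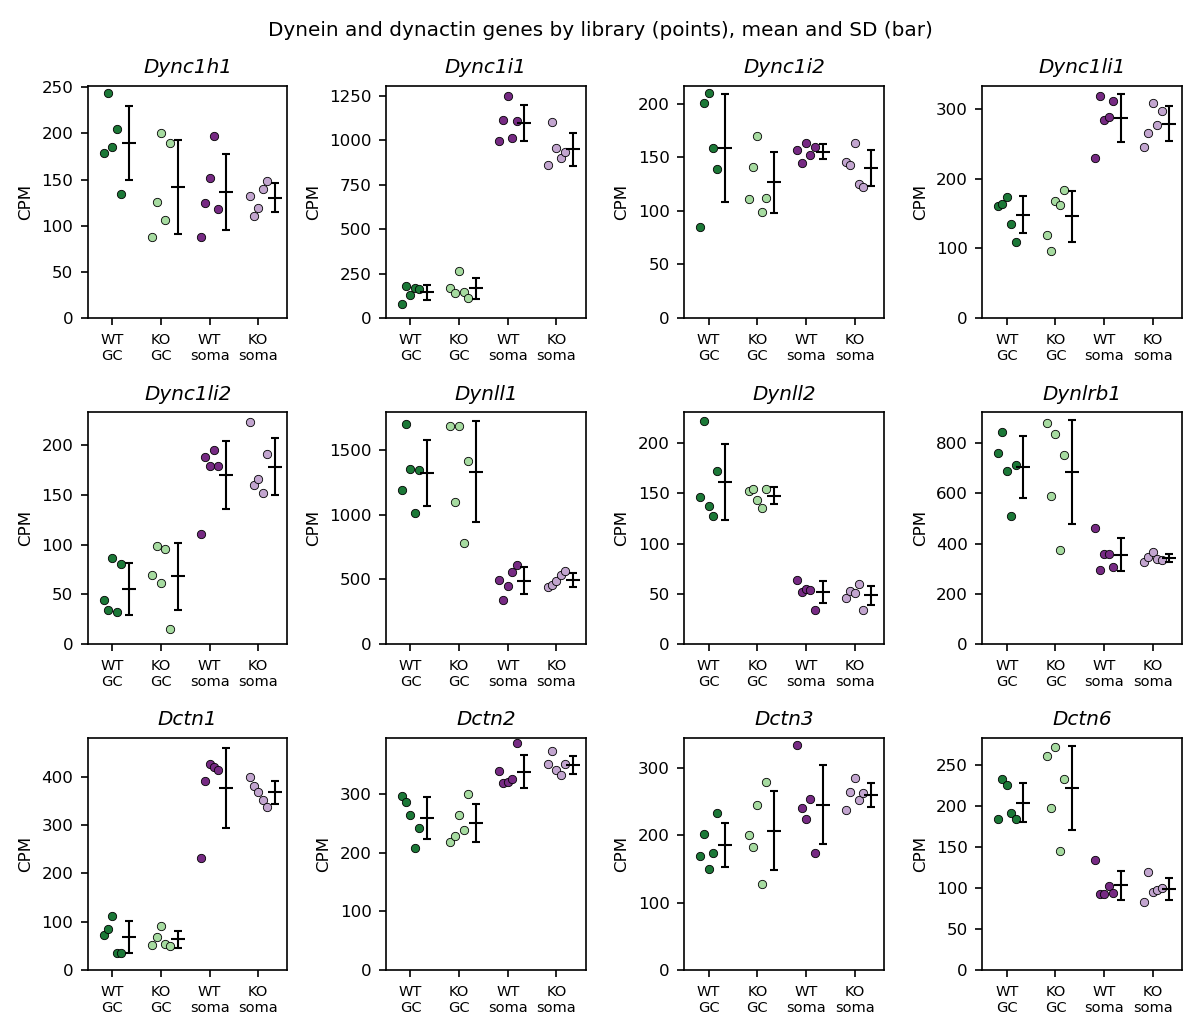
Scaled CPM of 8 dynein and 4 dynactin genes in each library (points), with the mean and SD of each group (bar); GC is growth cones and KO is the labelled KO. Dync1i1, Dync1li1, Dync1li2 and Dctn1 are lower in growth cones, Dynll1, Dynll2, Dynlrb1 and Dctn6 are higher, and Dync1h1 and Dync1i2 overlap.

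Dynactin was likewise uneven. Dctn1, the large subunit that binds dynein and the microtubule, stood at 73.2, 85.7, 112, 34.8 and 35.3 CPM in WT growth cones and 232, 391, 426, 421 and 415 CPM in WT somata. For the labelled KO the values were 52.3, 67.5, 92.0, 54.8 and 49.7 CPM in growth cones and 400, 380, 368, 353 and 337 CPM in somata. All growth cone libraries lay below all soma libraries, and soma 12 was low among the WT somata. Dctn1 had log2 fold changes of -2.42 ± 0.33 (edgeR adjusted p = 0.000116) and -2.46 ± 0.19 (adjusted p = 2.6e-06).

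Dctn6, a subunit of the complex's pointed end, moved opposite. Its levels were 184, 232, 225, 192 and 184 CPM in WT growth cones against 134, 92.1, 92.9, 102 and 93.7 CPM in WT somata, and 260, 197, 272, 145 and 233 CPM against 82.6, 119, 94.4, 97.3 and 99.8 CPM in the labelled KO. The compartments did not overlap in either genotype. Log2 fold changes were 1.03 ± 0.15 (edgeR adjusted p = 0.00021) and 1.25 ± 0.19 (adjusted p = 0.000303). Of the other 4 subunits, Dctn4 was lower in WT (-1.16 ± 0.21 on the log2 scale, edgeR adjusted p = 0.000955) and stood at -0.62 ± 0.30 (adjusted p = 0.13) in the labelled KO. Dctn5 was lower in WT by a smaller margin (-0.55 ± 0.17, edgeR adjusted p = 0.0203), a call that was lost without WT soma 12 or 25 and under upper quartile scaling or library totals (adjusted p up to 0.153). Dctn2, the dynamitin subunit, was lower in the labelled KO (-0.40 ± 0.12, edgeR adjusted p = 0.0163), lost under upper quartile scaling (adjusted p = 0.151) and library totals. Dctn3 passed in neither.

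Dynactin genes whose names fall outside the pattern, which build its short actin-like filament and cap its ends, gave 4 lower, 0 higher and 2 not called of 6 in each genotype. For this list and those that follow, the shares over all genes are 23.1% higher and 19.7% lower in WT and 21.6% and 17.0% in the labelled KO. Capza1 was lower at a log2 fold change of -2.13 (edgeR adjusted p = 2.9e-05) and Actr1a, the main filament subunit, at -1.28 (adjusted p = 0.00043) in WT. Of 10 further dynein light chains and regulators, 4 were higher and 2 lower in WT, and 6 higher and 1 lower in the labelled KO. The 4 were the Dynlt1 genes, near-identical tandem copies between which the counting could split reads, so their separate values are uncertain. Ndel1, a dynein regulator, was lower at -0.92 (edgeR adjusted p = 0.0022) in WT. Of 12 dynein adaptors tested in each genotype, 2 were higher and 2 lower in WT, and 2 higher and 3 lower in the labelled KO. Hook2 and Hook3, which tether dynein to cargo, were lower in both.

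Kinesin-1, the classical axonal motor of Kif5 heavy chains and Klc light chains, had 4 of 6 tested genes lower in WT growth cones and 5 of 6 in the labelled KO, with 0 higher, where 19.7% and 17.0% of all genes were lower. Kif5a and Klc4 did not pass in WT. Klc1 carried most of the counts, at 479, 654, 703, 620 and 660 CPM in WT growth cones and 1194, 1129, 1342, 1159 and 1176 CPM in WT somata. The labelled KO held 388, 587, 687, 433 and 573 CPM in growth cones and 1187, 1322, 1222, 1155 and 1106 CPM in somata. The compartments were well apart in both genotypes. Log2 fold changes were -0.90 ± 0.12 (edgeR adjusted p = 9.18e-05) and -1.08 ± 0.16 (adjusted p = 0.000243).

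Kif5c, a heavy chain found mainly in neurons, stood at 130, 211, 228, 153 and 192 CPM in WT growth cones and 228, 341, 361, 322 and 413 CPM in WT somata. Its labelled KO levels were 163, 156, 204, 109 and 224 CPM in growth cones and 508, 450, 424, 389 and 449 CPM in somata. WT growth cone 9 reached WT soma 12 at 228 CPM, while the labelled KO groups were apart. Log2 fold changes were -0.82 ± 0.19 (edgeR adjusted p = 0.00418) and -1.29 ± 0.19 (adjusted p = 0.000225). As a share of the 3 Kif5 chains per length, Kif5c in the labelled KO was 35.2% ± 7.43 in growth cones and 44.2% ± 2.67 in somata, with no overlap (exact permutation p = 0.00794, adjusted p = 0.0635). In WT its shares were 34.8% ± 7.34 and 37.5% ± 3.92 and overlapped (exact permutation p = 0.548). Kif5b, the broadly expressed heavy chain, was lower at -0.75 ± 0.26 (edgeR adjusted p = 0.0335) and -0.68 ± 0.23 (adjusted p = 0.0317). These calls were not firm, since 5 of the 10 single libraries left out in WT and 3 of the 10 in the labelled KO each ended the call (adjusted p up to 0.0984 and 0.119 over all alternatives). Kif5a, the third heavy chain, varied widely, at 144, 281, 227, 177 and 530 CPM in WT growth cones. Its log2 fold change was -0.51 ± 0.35 (edgeR adjusted p = 0.266) in WT and -0.78 ± 0.28 (adjusted p = 0.0427) in the labelled KO, a call lost without any 1 of 6 libraries (growth cones 7, 8 and 11 and somata 14, 15 and 26 of the labelled KO). That call was also lost in 6 of the 8 other settings, DESeq2's Wald test and limma-voom aside (adjusted p up to 0.112). Klc2 was scarce and lower, at 7.98 ± 3.14 against 20.3 ± 1.46 CPM in WT (edgeR adjusted p = 0.022), which 10.6% overlap with an opposite-strand gene bears on. Leaving out WT soma 14 or 25, or soma 14 or 15 of the labelled KO, ended its call (adjusted p up to 0.0546 and 0.064).

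Kinesin-2, which carries cargo in cilia and axons as a pair of different heavy chains, held the lowest p among kinesins in WT. Kif3a, the chain common to both heterodimers, stood at 75.6, 55.8, 91.7, 27.8 and 56.4 CPM in WT growth cones and 376, 388, 421, 407 and 365 CPM in WT somata. Growth cones and somata of the labelled KO gave 41.0, 76.9, 78.7, 105 and 70.0 CPM and 393, 418, 409, 363 and 324 CPM. The gap between compartments exceeded the spread within each group. Log2 fold changes were -2.62 ± 0.26 (edgeR adjusted p = 1.15e-05) and -2.28 ± 0.21 (adjusted p = 1.07e-05).

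The partners of Kif3a differed. Kif3c, enriched in neurons, stood at 56.4, 53.7, 74.2, 119 and 75.7 CPM in WT growth cones and 143, 206, 262, 222 and 226 CPM in WT somata, with no overlap and a log2 fold change of -1.44 ± 0.24 (edgeR adjusted p = 0.000422). Its labelled KO change was -0.90 ± 0.25 (edgeR adjusted p = 0.0149). Exons of 1110002L01Rik and Gm48512 on the opposite strand together overlap 40.7% of the exon length of Kif3c. Of these, 1110002L01Rik stood at 4.29 ± 3.94 CPM in WT growth cones and 6.76 ± 1.46 CPM in WT somata, and the level of Gm48512 is not given here. Kif3b, the other partner, stood at 54.8, 60.9, 74.6, 79.0 and 130 CPM in WT growth cones and 61.8, 82.4, 96.8, 107 and 129 CPM in WT somata, overlapping throughout (log2 fold change -0.21 ± 0.27, edgeR adjusted p = 0.567). As a share of Kif3b plus Kif3c per length, Kif3b was 57.8% ± 8.15 in WT growth cones and 37.0% ± 3.95 in WT somata, with no overlap (exact permutation p = 0.00794, adjusted p = 0.0635). In the labelled KO the shares were 47.8% ± 16.7 and 37.7% ± 1.51 and overlapped (exact permutation p = 0.198).

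**Figure D4:**
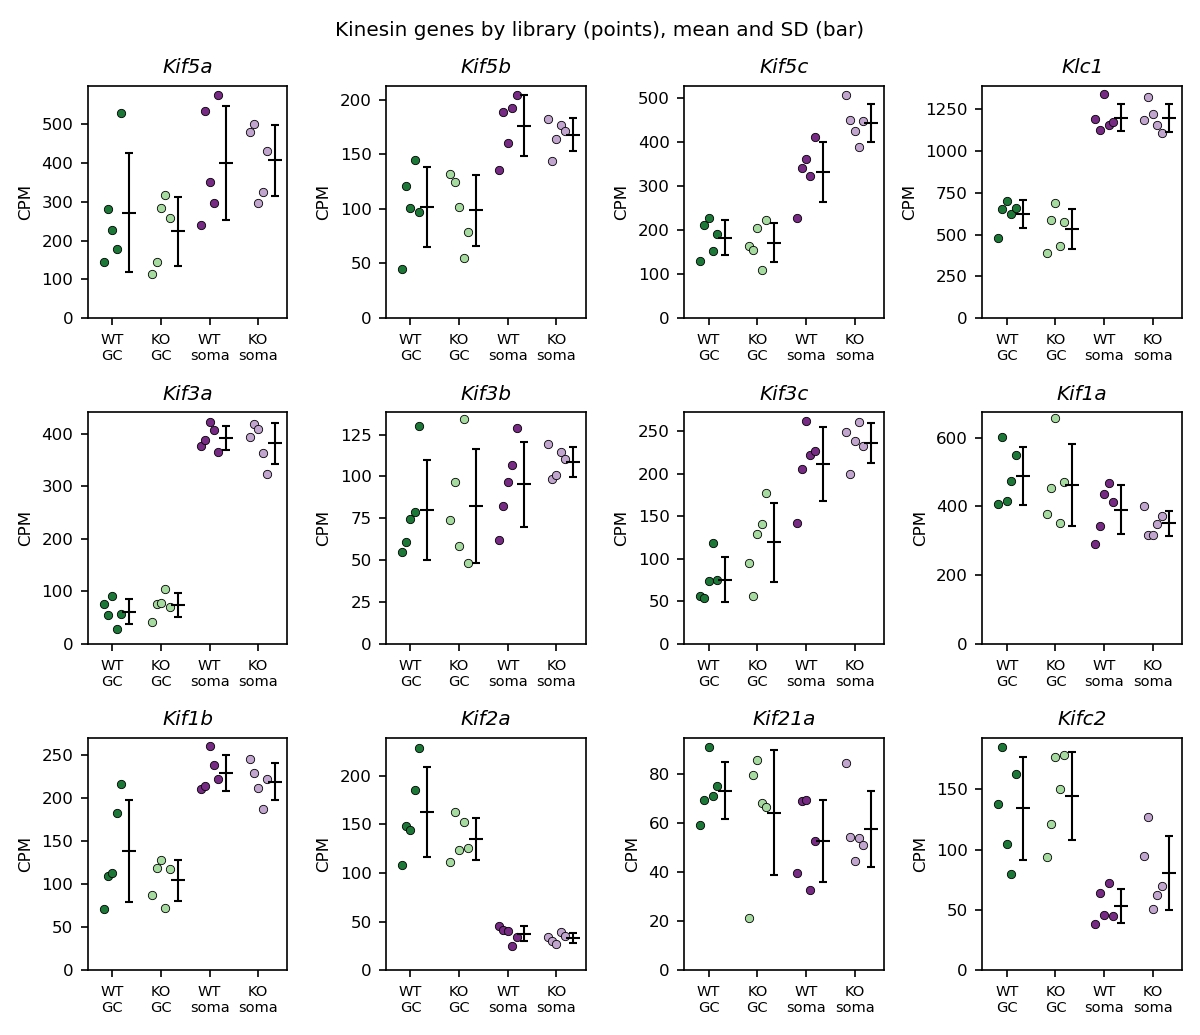
Scaled CPM of 12 kinesin and kinesin light chain genes in each library (points), with the mean and SD of each group (bar); GC is growth cones and KO is the labelled KO. Klc1, Kif3a, Kif3c and Kif5c are lower in growth cones, Kif2a and Kifc2 are higher, and Kif3b and Kif21a overlap.

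Kinesin-3, the family that moves synaptic vesicle precursors and dense-core vesicles, showed 0 calls among 6 genes tested in WT, and 1 higher and 1 lower in the labelled KO. Kif1a, its neuronal member, stood at 408, 601, 417, 473 and 551 CPM in WT growth cones and 292, 342, 437, 468 and 414 CPM in WT somata, overlapping, at a log2 fold change of 0.37 ± 0.16 (edgeR adjusted p = 0.0808). In the labelled KO it was 0.48 ± 0.17 (edgeR adjusted p = 0.0443), a call that 8 of the 10 single libraries left out each ended (adjusted p up to 0.115 over all alternatives). Kif1b stood at 70.7, 109, 112, 183 and 216 CPM in WT growth cones and 210, 213, 260, 238 and 222 CPM in WT somata (log2 fold change -0.68 ± 0.26, edgeR adjusted p = 0.0504). In the labelled KO it was lower at -0.99 ± 0.18 (edgeR adjusted p = 0.00106), with no overlap. Taken as a share of Kif1a plus Kif1b per length, Kif1a was 91.7, 91.3, 87.6, 83.2 and 82.9% in WT growth cones and 72.6, 75.4, 76.2, 78.9 and 78.1% in WT somata. All growth cone libraries exceeded all soma libraries in both genotypes, by 11.1 and 14.1 percentage points (exact permutation p = 0.00794 each, adjusted p = 0.0635).

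Kif2a, a kinesin-13 that does not walk but takes microtubule ends apart, was the motor gene with the largest called rise in both genotypes. It stood at 108, 148, 144, 185 and 229 CPM in WT growth cones and 45.3, 41.7, 40.4, 24.99 and 34.5 CPM in WT somata. Labelled KO libraries held 111, 163, 124, 152 and 125 CPM in growth cones and 33.9, 29.6, 27.3, 39.6 and 35.0 CPM in somata. The lowest growth cone library was above the highest soma library in either genotype. Log2 fold changes were 2.17 ± 0.24 (edgeR adjusted p = 2.19e-05) and 2.11 ± 0.18 (adjusted p = 4.8e-06). Exons of Dimt1 on the opposite strand overlap 19.2% of its exon length, and Dimt1 stood at 14.6 ± 18.6 CPM in WT growth cones and 20.97 ± 2.12 CPM in WT somata (edgeR adjusted p = 0.728).

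Kifc2, a neuronal minus-end kinesin, rose from 53.1 ± 14.3 to 134 ± 42.6 CPM in WT (1.39 ± 0.26 on the log2 scale, edgeR adjusted p = 0.00116) with no overlap. In the labelled KO, somata reached 127 CPM and overlapped the growth cones, and the change was 0.92 ± 0.27 (edgeR adjusted p = 0.0189), lost without growth cone 9 or soma 25 or 26 of that genotype (adjusted p up to 0.0576). Kif26b, an unconventional kinesin, was higher at 30.8 ± 18.3 against 10.6 ± 2.49 CPM in WT (1.58 ± 0.45, edgeR adjusted p = 0.0136), and its call in the labelled KO (adjusted p = 0.0326) was lost without any 1 of 7 libraries (growth cones 8, 9 and 10 and somata 14, 15, 25 and 26; adjusted p up to 0.131 over all alternatives). Its relative Kif26a fell. It stood at 4.66, 7.46, 6.82, 38.2 and 0.542 CPM in WT growth cones and 73.1, 96.3, 59.7, 69.7 and 47.4 CPM in WT somata, with growth cone 10 far above the other 4 yet still below every soma library. Its log2 fold change was -2.54 ± 0.79 (edgeR adjusted p = 0.0206, or 0.0534 without WT soma 14) in WT and -3.56 ± 0.31 (adjusted p = 6.6e-06) in the labelled KO. Kifc3 was lower in the labelled KO alone (-1.21 ± 0.41, edgeR adjusted p = 0.0352), a call lost without any 1 of 5 libraries (growth cones 9 and 10 and somata 14, 15 and 25), and 27.5% of its exon length lies over opposite-strand genes. The kinesin-4 genes Kif21a and Kif21b, which act at microtubule tips, stood at 0.52 ± 0.24 (edgeR adjusted p = 0.103) and 0.11 ± 0.25 (adjusted p = 0.756) in WT and did not pass in the labelled KO.

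The kinesins of dividing cells and of cilia were scarce, Kif3a and Kif3b aside. None of the mitotic kinesins tested passed between compartments, of 6 in WT and 7 in the labelled KO. Kif20a, a mitotic kinesin too scarce for the WT test, was called lower when all 20 libraries were fitted together (edgeR adjusted p = 0.0275), with no filter (adjusted p = 0.0372) and in 6 fits that each left out 1 library. The fit without WT soma 12 did not call it, and that library held 337 counts against 8 to 22 in the other WT somata. Exons of Cdc23 on the opposite strand overlap 29.3% of Kif20a's exon length. The summed level of the mitotic kinesins ran from 17.1 to 61.6 CPM in WT growth cones and 14.8 to 34.1 CPM in WT somata. Of the cilium kinesins tested (6 in WT and 7 in the labelled KO), Kif3a passed in both genotypes and the others in neither. Kif7, a cilium kinesin also too scarce for the WT test, was called lower in the fit of all 20 libraries (edgeR adjusted p = 0.000925) and with no filter (adjusted p = 0.0278). Kif24 was called lower without WT growth cone 11 (edgeR adjusted p = 0.0221), and Kif9 and Kif17 in the labelled KO by limma-voom (adjusted p = 0.0476 and 0.0474). Kif12 and Kif2b had no count in any of the 20 libraries, and Kif28, Kif14, Kif19a and Klc3 also had too few for any test, so that 56 of the 62 genes entered at least 1 comparison.

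Long and short motor genes were found on both sides. The median exon length was 3890 bases among the genes higher in WT growth cones and 6355 among those lower, with ranges that overlapped. Over the 49 tested in WT, Spearman's rho between gene length and log2 fold change was -0.04, and over the 51 in the labelled KO it was 0.06. Over all genes tested the values were -0.32 and -0.35. All points share the same 10 libraries per genotype, so these are descriptions.

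Kinesin adaptors and cargo links, a list of 21 genes outside the pattern, gave 10 lower and 3 higher in each genotype, where 19.7% (WT) and 17.0% (labelled KO) of all genes were lower and 23.1% and 21.6% higher. The higher genes in WT were Mapk8ip1, a scaffold that binds kinesin-1 (log2 fold change 0.65, edgeR adjusted p = 0.00225), and the mitochondrial transport genes Trak2 (0.79, adjusted p = 0.0317) and Rhot2 (1.52, adjusted p = 0.0434). Mapk8ip1, Trak2 and Plekhm2 were the higher genes of the labelled KO. Sybu (syntabulin), which couples kinesin-1 to synaptic cargo, was lower at a log2 fold change of -2.23 in WT (edgeR adjusted p = 5.9e-07). Fez2 and Fez1, kinesin-1 adaptors, were lower at -1.41 and -1.01 (edgeR adjusted p = 5.5e-05 and 8.5e-05). Mapk8ip2, a scaffold that binds kinesin light chains, was lower at -1.92 (edgeR adjusted p = 2.4e-05).

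No motor gene passed the test between genotypes in somata. Between somata labelled KO and WT, 0 of 52 motor genes tested passed edgeR's test, with 5 at an unadjusted p under 0.05, and 0 by DESeq2's Wald test and by limma-voom. Over all 14911 genes 0.731% were called, and 3.17% had no overlap between the libraries, against 0 of the 52 motor genes. Of all genes, 1278 had an unadjusted p under 0.05, and DESeq2's Wald test called 393 and limma-voom 138. The 3 with the lowest p were Dync2li1 (19.3 ± 2.02 CPM in the labelled KO and 29.4 ± 5.62 CPM in WT, a log2 difference of -0.61 ± 0.18, edgeR adjusted p = 0.244), Kif5c and Dync1i1.

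Kif5c stood at 444 ± 43.4 CPM in somata labelled KO and 333 ± 67.8 CPM in WT somata, with 389 to 508 CPM against 228 to 413 CPM, overlapping. Its log2 fold change was 0.41 ± 0.14 (edgeR adjusted p = 0.321). Its share of the 3 Kif5 chains per length was 44.2% ± 2.67 in the labelled KO and 37.5% ± 3.92 in WT (exact permutation p = 0.0159, adjusted p = 0.109). Dync1i1 stood at 949 ± 92.3 CPM in the labelled KO and 1096 ± 99.4 CPM in WT (a log2 difference of -0.21 ± 0.09, edgeR adjusted p = 0.504).

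**Figure D5:**
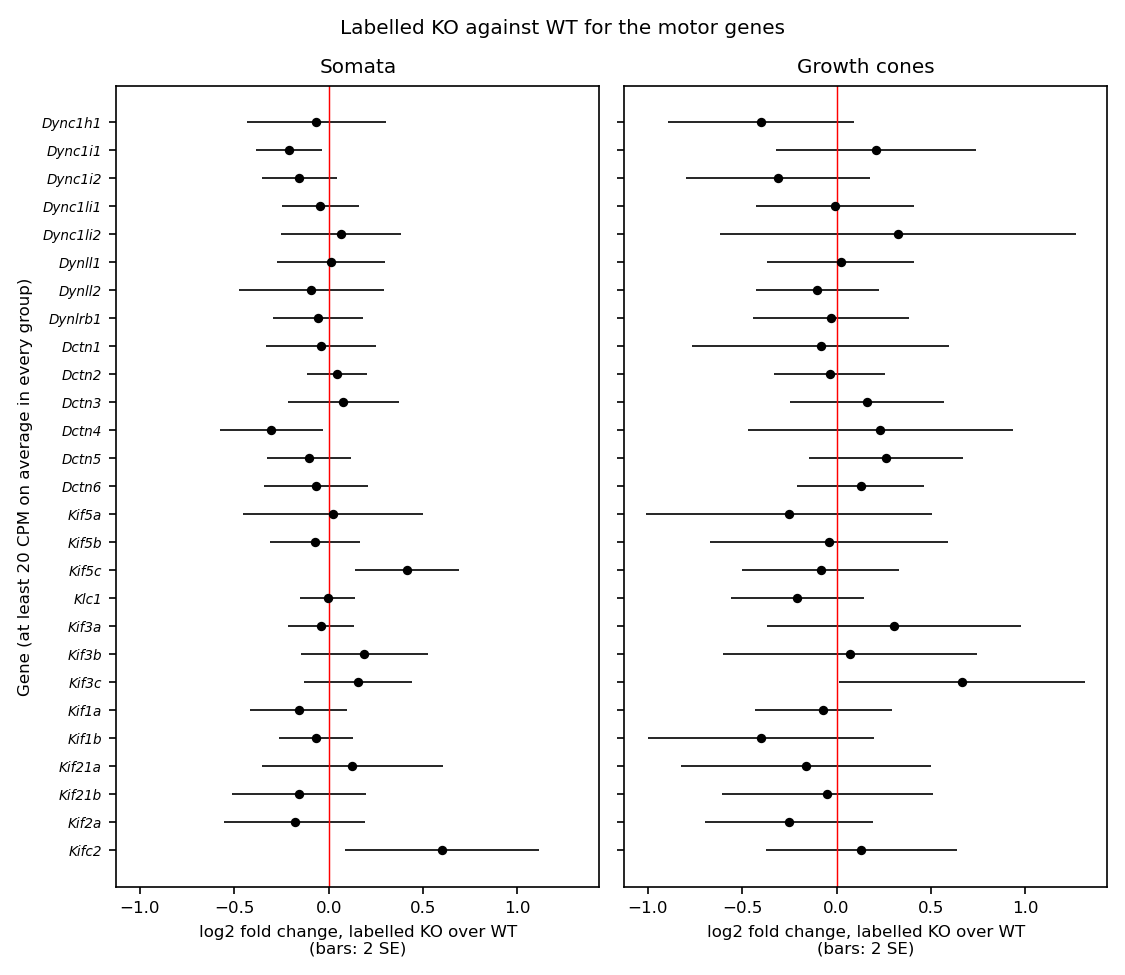
Log2 fold change of the labelled KO over WT in somata (left) and growth cones (right) for the 27 motor genes with at least 20 CPM on average in every group; bars are 2 standard errors. Points lie around 0 and the bars are wider in growth cones.

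Precision differed between the compartments. For the 26 motor genes of at least 50 CPM in both soma groups, standard errors ran from 0.07 to 0.26 (median 0.14) on the log2 scale and fold changes from -0.30 (Dctn4) to 0.60 (Kifc2), with 25 of 26 within 0.5 of 0. In growth cones 27 such genes had standard errors of 0.15 to 0.47 (median 0.25) and fold changes from -0.40 (Dync1h1) to 0.67 (Kif3c). An interval of 2 standard errors on either side for Klc1 ran from -0.15 to 0.14 in somata and from -0.56 to 0.14 in growth cones, and for Dynll1 from -0.27 to 0.30 and from -0.37 to 0.41. The median coefficient of variation within a group was 28.2 and 27.6% in the growth cone groups and 19.2 and 10.2% in the soma groups (WT first), beside 26.2, 29.2, 16.8 and 13.2% over all genes of that level.

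In growth cones, 0 of 50 motor genes passed edgeR's test between the labelled KO and WT, with 1 at an unadjusted p under 0.05, 0 by limma-voom and 1 by DESeq2. All 15419 genes gave 0.0% called by edgeR, 329 at an unadjusted p under 0.05 and 11 called by DESeq2. Without overlap were 0.532% of all genes, and the 1 motor gene without overlap was Kif7. Kif7, a kinesin-4 of the Hedgehog pathway in cilia, had 0 counts in all 5 WT growth cone libraries and 3.64, 5.46, 0.899, 1.95 and 0.944 CPM in the labelled KO. Against a floor of 3 counts per library it was at least 25.6-fold higher (edgeR adjusted p = 0.31, DESeq2 adjusted p = 0.00631). In somata it ranged widely, at 0, 10.6, 2.6, 4.73 and 0 CPM in WT, and opposite-strand genes lie over 20.3% of its exon length. Kifc1, whose reads its copies can share (0.41 ± 0.326 CPM in the labelled KO and 2.04 ± 3.21 CPM in WT) and Kif3c (120 ± 46.5 and 75.8 ± 26.1 CPM) came next, with overlapping libraries and edgeR adjusted p = 0.999 each.

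The test of the difference between the compartment effects of the 2 genotypes covered all 20 libraries and 56 motor genes, of which 0 passed (1 at an unadjusted p under 0.05, 0 by limma-voom and 1, Kif7, by DESeq2). Over all 17645 genes 0.0397% were called by edgeR, 1231 had an unadjusted p under 0.05 and DESeq2 called 273. Lowest p values belonged to Kif7 (edgeR adjusted p = 0.249), Kif20a, a kinesin of cell division (0.754), and Kif5c, whose compartment effects differed by -0.51 ± 0.27 on the log2 scale (edgeR adjusted p = 0.77).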

How the data were processed

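Raw gene counts of 20 libraries were deposited by the authors as 1 table; its layout is that of featureCounts, per the file headers. Trimmomatic 0.39, STAR 2.7.1a, featureCounts 1.5.0 and GRCm39 are named in the submitters' processing notes. The table's coordinates are nevertheless those of GRCm38: 98.1% of its genes have the gene coordinates of GENCODE release M21, which gave symbols and exons, and coordinates here are the table's. The use of strand and of reads that map to several places is not given in the sources used here, so reads of overlapping genes on opposite strands cannot be told apart; 8 motor genes have at least 10% of their exon length over such a gene. The labels' protocols name RNeasy micro columns for RNA and, for libraries, SMART-seq v4 and Nextera XT.

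The motor family, the other gene lists, the tests and the named genes were chosen with earlier results of these data known; within the family, the symbol alone made a gene a member. The named genes are Bcl11b, the core subunits of each motor, the motor genes with the lowest p in each comparison and up to 4 called genes of each list.

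Counts were fitted over the whole table with edgeR 4.0.16 (R 4.3.3): filterByExpr with a minimum count of 10, TMM scaling, the quasi-likelihood F test and Benjamini-Hochberg adjustment at 0.05, with only the 2 groups compared in each fit and all 20 libraries for the interaction. Standard errors come from the fold change and the F statistic. Levels are CPM with TMM scaling over all libraries, given as mean ± SD (n = 5); Bcl11b alone is relative to the library total. TPM was computed from counts and the table's gene lengths. Paralog shares (12 shares in 4 comparisons) were compared by exact permutation over 252 regroupings with adjustment over 48 tests. Bounds against 0 use a floor of 3 counts per library and cover counting error only. The fits were tested on simulated data. Alternatives covered scaling, filter, test (DESeq2 1.42.0, limma 3.58.1 with voom), detected genes as a covariate, the libraries in the fit and each library left out. Replicate libraries differed by more than sampling noise (smallest chi-square per degree of freedom 52.7), and none was merged.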

Additional observations from a re-analysis of the deposited data

Results flagged for a closer look

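Of 108 group values checked (27 core motor genes in 4 groups), 5 held a library far from the other 4 on the log2 scale. The rule used flags about 1 in 20 groups of independent, normally distributed values. Genes measured in the same library are not independent, so the count of flags cannot be set against that rate. The cause of the flags was not tested. WT soma 12 was 3 of the 5. There Dync1li2 stood at 110 CPM, against 179 to 195 CPM in the other WT somata, and Dctn1 at 232 CPM, against 391 to 426 CPM. Dctn6 in the same library stood at 134 CPM, against 92.1 to 102 CPM. Without WT soma 12, the WT growth cone against soma log2 fold changes were -1.62 for Dync1li2 (edgeR adjusted p = 0.00171), -2.47 for Dctn1 (adjusted p = 0.000208) and 1.22 for Dctn6 (adjusted p = 7.44e-05).

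In growth cones labelled KO, Dync1li2 stood at 14.8 CPM in library 11, against 60.9 to 98.9 CPM in the others, and without it the log2 fold change against somata was -1.07 (edgeR adjusted p = 0.00191). Kif21a stood at 21.2 CPM in library 7, against 66.7 to 86.0 CPM, and without it the log2 fold change was 0.41 (edgeR adjusted p = 0.153).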

How the results depend on the processing

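Over the alternatives run, the count of motor genes called between compartments stayed within 1.5 times its value: 20 to 24 in WT and 19 to 26 in the labelled KO, 17 to 24 and 17 to 22 with 1 library left out, and 17 and 19 when genes with at least 10% of exon length over an opposite-strand gene were left out, an alternative chosen after seeing the data. Leaving that last alternative aside, 16 of the 20 WT calls and 15 of the 23 in the labelled KO were kept in all settings, and no called motor gene changed direction. Kif7 and Kif20a, too scarce for the test in WT, were called lower with no filter on low counts and with all 20 libraries fitted together, and Kif20a also in 6 fits with 1 library left out. Other motor genes also gained a compartment call under some alternatives, among them Dynlrb2, Dync1h1, Kif21a, Dctn2, Dctn3, Dctn4, Kif1a, Kif1b, Kif5a, Kifc3 and Klc4. DESeq2's Wald test called 1 motor gene (Kif7, higher) between growth cone genotypes and 1 (Kif7) in the interaction, where edgeR called 0. Over all genes it called 11 of 15419 and 273 of 17645 in these comparisons. The cause of the difference between the tests was not tested. The summed level per length, -0.31 in WT and -0.32 in the labelled KO by TPM, moved to -0.0472 and -0.0482 by TMM-scaled CPM per kilobase. Bcl11b in somata ranged from 0.65 to 0.81 with 1 library left out. With the experiment number as a replicate block, 0 motor genes were called between genotypes in somata, in growth cones and in the interaction. Deviations of same-numbered libraries correlated only weakly between genotypes. Over 4 soma pairs the correlations ran from -0.0098 to 0.108, 2 of them best with their own number. Over 5 growth cone pairs they ran from 0.0145 to 0.104, 4 of them best. The main genotype tests did not use the numbers as pairs. No paired analysis was possible for the compartment comparisons because they share no numbers. No paralog share passed adjustment under any alternative, which the small number of libraries largely set. In the main setting the smallest p that the exact permutation test allows, 0.00794, became 0.0635 over the 48 tests. This held also for shares whose libraries did not overlap, so not passing does not show that a share was unchanged.

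Values that had not passed a test did change sign: 39 values of 20 share differences, 30 of them with 1 library left out, and 3 values of Bcl11b in growth cones, which ranged from -0.1549 to 0.1198. These ranges are share differences in percentage points with 1 library left out. For growth cones minus somata in WT they were -2.31 to 0.29 (Dynll1), -0.776 to 5.96 (Kif5a), -3.63 to 0.70 (Kif5b), -4.43 to 0.0756 (Kif5c), -0.861 to 1.17 (Klc1) and -3.45 to 12.7 (Kif13a). In the labelled KO they were -0.333 to 9.14 (Kif5a), -1.39 to 1.44 (Klc1) and -4.13 to 2.04 (Kif21a). For the labelled KO minus WT they were, in somata, -0.335 to 0.05004 (Dynlrb1), -0.384 to 0.0123 (Dync1i1), -2.59 to 0.187 (Dync1li1) and -0.357 to 2.16 (Kif3b), and in growth cones -0.549 to 1.67 (Dynll1), -7.73 to 2.10 (Kif5a), -0.759 to 4.63 (Kif5b) and -2.40 to 3.59 (Kif5c). With medians in place of means, sign changes gave -1.24 for Klc1 (growth cones minus somata, WT), 0.954 for Klc1 and 0.217 for Kif21a (labelled KO), 0.182 for Dync1i1, 0.666 for Kif5a and -1.60 for Kif21a (labelled KO minus WT, somata), and 0.935 for Kif5a, -0.811 for Kif5b and 1.43 for Klc1 (growth cones). The cause was not tested.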
